A study of Mus musculus with 2 samples.

Results

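The genes described here are the 10 measured genes of MHC class II and its loading machinery, found by symbol among the 31253 genes of the tables: H2-Aa, H2-Ab1, H2-Eb1, H2-DMa, H2-DMb1, H2-DMb2, H2-Oa, H2-Ob, Cd74 and Ciita. All 10 were present. They were read in leukocytes of mouse intrahepatic cholangiocarcinoma (iCCA), a cancer of the liver's bile ducts. The method was single-cell RNA sequencing with BD Rhapsody, which counts each captured RNA molecule once by its unique molecular identifier (UMI). Both groups were C57BL/6 mice given transposon vectors for Myr-AKT and YAPS127A together by hydrodynamic injection, a fast injection that brings DNA into liver cells. From 7 days later, 1 group received NAV2729 (NAV) at 30 mg/kg every other day for 7 days, and the other, MOCK, did not. NAV2729 blocks the activation of ARF GTPases. Livers were digested, the suspension was sorted for CD45, and tumours were pooled into 1 library per group. The labels give no age or sex, and they give the pool both as 6 tumours and as 3 paired ones, so its size is uncertain.

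With 1 library per group there was no replicate check and no test between groups. Every interval below is a 95% interval that covers counting error only, and a difference between MOCK and NAV is a difference between these 2 libraries. The MOCK library held 10863 barcodes and 45976676 UMIs, the NAV library 10465 barcodes and 31454031 UMIs, and 5 barcodes occurred in both. After filtering, 10086 MOCK and 9841 NAV cells were analysed. Ptprc, which encodes CD45, had a UMI in 83.4% and 79.6% of them, and the hepatocyte gene Alb in 1.13% and 0.518%. Cells were put into classes by marker genes, with the class II genes left out of the clustering, and each class is called "-like" because no protein was measured.

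An MHC class II molecule is a pair of an α and a β chain that shows peptides from endocytosed material to CD4 T cells. H2-Aa and H2-Ab1 encode the α and β chain of I-A. H2-Eb1 encodes the β chain of I-E, which C57BL/6 mice do not display because their Ea gene is not transcribed, so its RNA is made without the complete protein. New pairs bind the invariant chain, encoded by Cd74, whose last fragment, CLIP, is exchanged for peptide by DM, a pair of the H2-DMa chain with a chain from H2-DMb1 or H2-DMb2. DO, the pair of H2-Oa and H2-Ob, inhibits DM and is known mainly from B cells. Ciita encodes the coactivator that switches these genes on. Interferon gamma induces it in macrophages. It acts through proteins bound to conserved X and Y boxes in class II promoters.

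On mm10 (GRCm38), with GENCODE vM21 gene models, 8 of the members lay together in the MHC on chromosome 17. These were H2-Oa (34092340 to 34095234), H2-DMa (34119541 to 34139101), H2-DMb2 (34143307 to 34151555), H2-DMb1 (34153072 to 34160230), H2-Ob (34238903 to 34254414), H2-Ab1 (34257689 to 34269419), H2-Aa (34282744 to 34287823, minus strand) and H2-Eb1 (34305867 to 34316674). Ciita and Cd74 lie outside the MHC, Ciita on chromosome 16 (10480059 to 10528418). All 10 are protein-coding genes. H2-DMb1 and H2-DMb2 are near-identical neighbours, and their split depends on how the counting treated shared reads, which is not given in the sources used here. The annotated H2-DMa model runs over the 5′ end of Brd2 on the opposite strand, and whether counting used strand is not given either.

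Promoter windows from 250 bases before to 50 after a start, from RefSeq on GRCm38.p6, were matched for 7 of the 10 members, in 8 windows. They were read for the letters that Ciita-dependent promoters are known for. Whether these letters bear on the lower H2-DMa level described below was not tested. The letters AAC followed after 2 further bases by ATGATG, an X-box core chosen after the members' sequences were seen, were found on either strand in 45 of 32851 windows of all genes (0.137%), and ATTGG, the core of a Y box, in 12289 (37.4%). The first followed by the second on the sense strand, 10 to 30 bases apart, occurred in 4 of all windows, and these 4 were members. The capitals below mark both cores, and the distances between them were 20, 20, 17 and 19 bases in that order.
H2-DMb2, chr17:34145120-34145171, plus strand: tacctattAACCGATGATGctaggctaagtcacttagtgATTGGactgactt
H2-DMb1, chr17:34153091-34153142, plus strand: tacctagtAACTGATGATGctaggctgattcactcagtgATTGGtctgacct
H2-Ob, chr17:34238812-34238860, plus strand: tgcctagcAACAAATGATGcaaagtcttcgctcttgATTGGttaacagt
H2-Eb1, chr17:34305770-34305820, plus strand: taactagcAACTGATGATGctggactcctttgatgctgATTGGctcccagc

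The windows of the α chain genes H2-Aa and H2-Oa held the Y core without this X core, and their stretches are shown for comparison, with the Y core in capitals. Other spellings of an X box were not searched, so these windows may still hold an X box.
H2-Aa, chr17:34287859-34287916, minus strand: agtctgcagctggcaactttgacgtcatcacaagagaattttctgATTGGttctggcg
H2-Oa, chr17:34092291-34092348, plus strand: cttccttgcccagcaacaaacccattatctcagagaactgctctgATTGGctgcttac
H2-DMa had 2 windows, 1 of 73.0% GC with neither core (34122582 to 34122881) and 1 of 39.0% GC with ATTGG only (34125268 to 34125567). Both lie inside its annotated model (34119541 to 34139101), and no window at another start of the gene was matched. They therefore do not show whether H2-DMa has these cores elsewhere. A match or its absence describes these letters in these windows.

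The level of H2-Ab1 ran over a wide range, highest in conventional dendritic cells and falling by degrees through the other classes. Values are UMIs scaled to a class total of 1000000 (CPM). In MOCK it was 13748 CPM in type 2 conventional dendritic (cDC2-like) cells and 11031 CPM in type 1 (cDC1-like) cells, the classes specialised in presenting antigen. B-like cells had 4340 CPM and mature DC-like cells, which carry the migration receptor gene Ccr7, 4041 CPM, and the intervals of these 2 classes overlapped. Cycling-like cells, a class named by cell cycle genes and not by cell type, had 2861 CPM. Macrophage-like cells followed at 2349 CPM and Kupffer-like cells, the macrophages that live in liver sinusoids, at 1163 CPM. Plasmacytoid (pDC-like) cells had 828 CPM, with an interval (691 to 984) that held the 735 CPM of classical monocyte-like cells. Nonclassical monocyte-like cells, which patrol vessel walls, had 194 CPM.

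Below them lay classes that make little or no class II in mice and serve as background for free RNA. In MOCK, H2-Ab1 was at 94.7 CPM in neutrophil-like, 81.9 CPM in CD8 T-like, 62.4 CPM in NK-like and 37.3 CPM in gd T/T17-like cells. The intervals of the first 3 overlapped. In NAV these classes stood at 140, 70.5, 87.6 and 50.6 CPM. Neutrophil-like cells were the one class of these in which the NAV level lay above the MOCK interval. There the log2 NAV/MOCK ratio of H2-Ab1 was 0.56, beside a median of 0.34 over the 7421 genes measured in the class, so relative to that shift the difference was small.

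**Figure D1:**
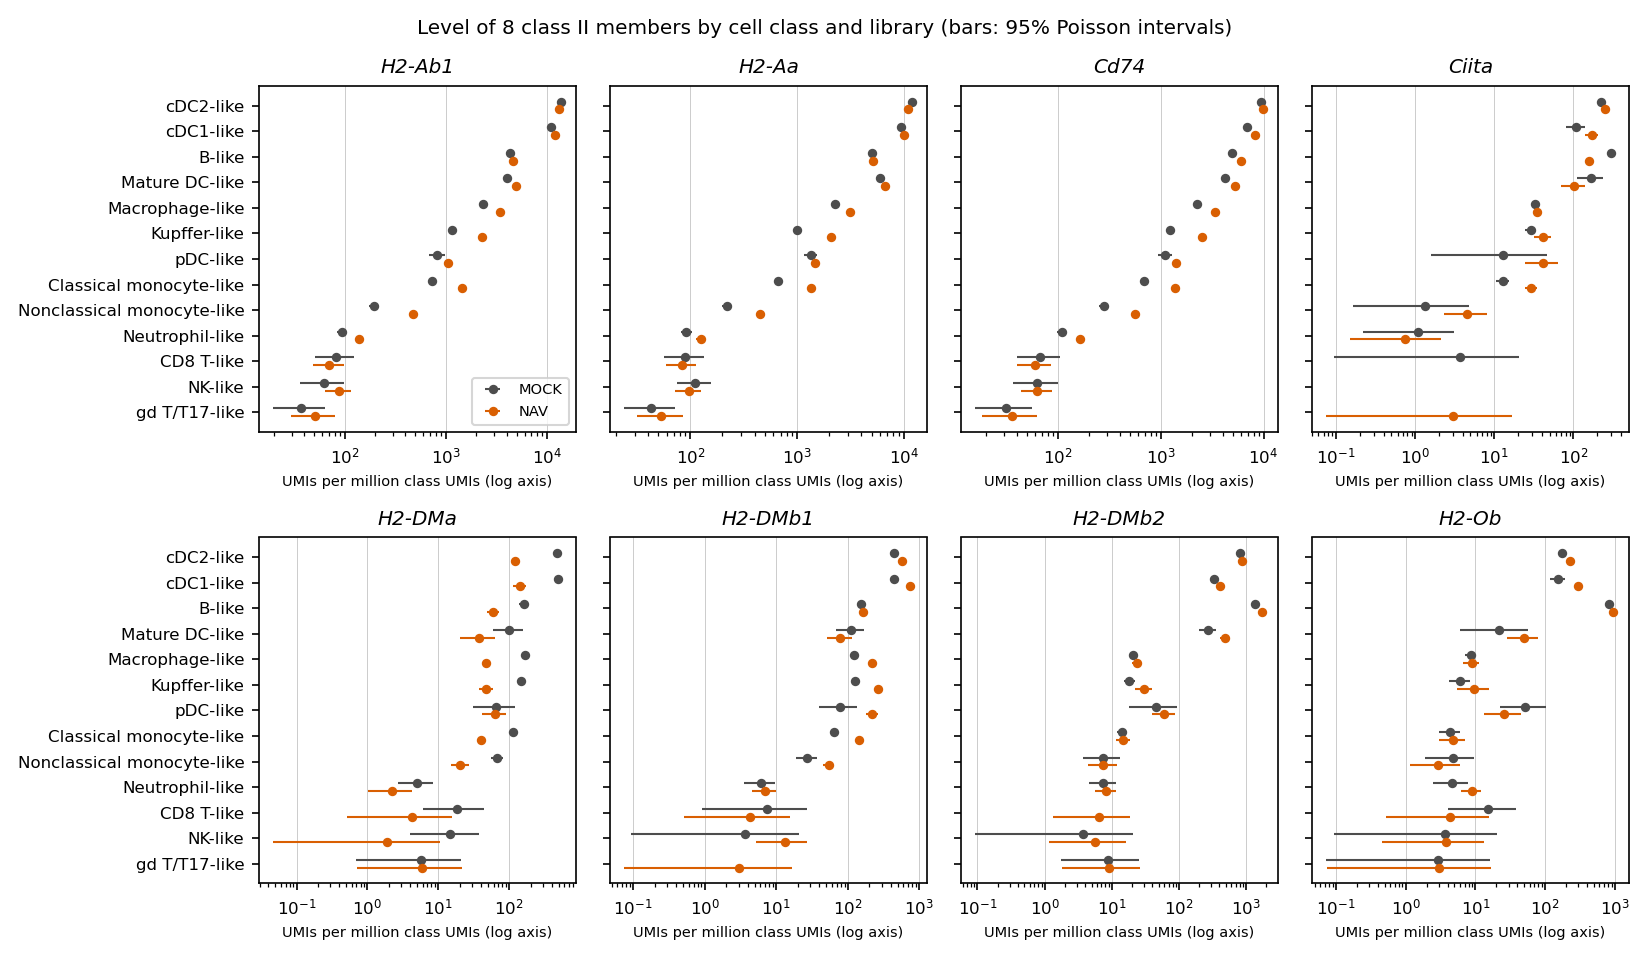
Level of 8 members in the leukocyte classes shown, in CPM on a log axis, MOCK in grey and NAV in orange, with 95% Poisson intervals. A class with 0 UMIs has no point, and cycling-like cells are not shown. H2-Ab1 runs from 13748 in cDC2-like to 37.3 in gd T/T17-like cells in MOCK, while H2-DMb2 and H2-Ob stand high in B-like cells and low in macrophage-like and Kupffer-like cells.

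H2-Aa, H2-Eb1 and Cd74 were also highest in cDC2-like and then cDC1-like cells of MOCK, but the order below differed. H2-Aa was 5954 CPM (5604 to 6320) in mature DC-like against 5012 CPM (4894 to 5131) in B-like cells, and 1345 CPM in pDC-like against 1007 CPM in Kupffer-like cells. H2-Eb1 was 4653 CPM in mature DC-like and 2595 CPM in B-like cells. The UMI ratio of H2-Aa to H2-Ab1 in MOCK lay at 0.866 in cDC2-like, 0.866 in Kupffer-like, 0.964 in macrophage-like and 1.16 in B-like cells. In NAV it was 0.837, 0.910, 0.929 and 1.10, so in these classes the α and β chain RNAs kept close proportions in both libraries. In MOCK and NAV it was 1.47 and 1.33 in mature DC-like and 1.625 and 1.42 in pDC-like cells. Nonclassical monocyte-like cells had 1.14 and 0.952. UMIs were not scaled by transcript length, so such a ratio is read between classes and libraries only. Cd74 to H2-Ab1 was lowest in the conventional dendritic classes, at 0.628 in cDC1-like and 0.684 in cDC2-like cells of MOCK. It was 1.15 in B-like and 1.06 in Kupffer-like cells, so the conventional dendritic classes held less invariant chain RNA per I-A β chain RNA than these. This did not hold for mature DC-like (1.05) and pDC-like cells (1.34), and cycling-like cells (0.685) were as low as cDC2-like cells.

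The DM and DO genes split the antigen-presenting classes differently. H2-DMb2 reached 1335 CPM in B-like and 797 CPM in cDC2-like cells of MOCK, against 20.8 CPM in macrophage-like and 18.3 CPM in Kupffer-like cells. H2-DMb1 was highest in cDC2-like (446 CPM) and cDC1-like (440 CPM) cells, with 152 CPM in B-like, 123 CPM in macrophage-like and 127 CPM in Kupffer-like cells. The ratio of H2-DMb2 to H2-DMb1 UMIs was therefore 8.76 (7.59 to 10.1) in B-like cells, 1.79 in cDC2-like cells, 0.763 in cDC1-like cells, 0.170 in macrophage-like and 0.144 in Kupffer-like cells of MOCK. In NAV the ratio was 10.6, 1.52, 0.552, 0.108 and 0.113, the same order for all but the last 2 classes, whose intervals overlapped.

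H2-Ob, the DO β chain, was highest in B-like cells with 815 CPM in MOCK and 934 CPM in NAV. In cDC2-like cells it had 174 and 229 CPM, and in macrophage-like cells 8.62 and 8.80 CPM. H2-Oa, the DO α chain, had 42.1 and 45.9 CPM in B-like and 47.1 and 48.9 CPM in cDC2-like cells. It had 5 and 7 UMIs in all macrophage-like cells and 0 in all Kupffer-like cells. With 3 counts as the limit that a count of 0 allows, a level of up to 0.473 CPM in MOCK and 1.92 CPM in NAV was not detectable there. Ciita in MOCK was highest in B-like cells (298 CPM), then cDC2-like (224), mature DC-like (165) and cDC1-like cells (108), and it was 32.5 CPM in macrophage-like and 28.7 CPM in Kupffer-like cells.

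Over 20 sums of class and library, the genes whose level most resembled that of H2-Ab1 among 6453 genes were Cd40 (r = 0.969), a receptor for T cell help, then Pkib (r = 0.938) and Cd86 (r = 0.903), a costimulatory ligand. For H2-DMa they were Pkib (r = 0.884), Vav2 (r = 0.880) and Gm6377 (r = 0.869). These correlations are descriptions over sums that share 2 libraries and differ in depth. Between members, H2-Ab1 and H2-Aa had r = 0.999 and H2-Ab1 and Cd74 r = 0.993, whereas H2-Ab1 and H2-DMa had r = 0.841.

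Between the libraries, the I-A chains, H2-Eb1, Cd74 and H2-DMb1 were called higher in NAV in monocyte-, macrophage- and Kupffer-like classes, except H2-Aa in macrophage-like cells, and in neither B-like nor cDC2-like cells. H2-DMa was called lower in all 6. A gene was called higher or lower when its log2 NAV/MOCK ratio passed 0.5 either way, among genes with at least 50 UMIs over both libraries in the class. In classical monocyte-like cells 6 of 9 measured members were called higher, against 4.36% of all 9005 genes measured there, and 1 was called lower, against 12.7%. In Kupffer-like cells these numbers were 8 and 1 of 9, with 6.01% and 14.2% of all genes. Among the 8 was H2-Ob, with 38 and 15 UMIs and a log2 ratio of 0.68 (-0.29 to 1.58), an interval that holds 0. In macrophage-like cells they were 4 and 1 of 9, with 5.93% and 13.8%. In nonclassical monocyte-like cells they were 5 and 1 of 6, with 7.87% and 11.5%. Members below 50 UMIs were H2-Oa in all 4 classes, and H2-DMb2, H2-Ob and Ciita in nonclassical monocyte-like cells. Cycling-like cells (281 and 141) are outside the 6 classes. There 8 and 1 of 9 measured members were called higher and lower, with 8.8% and 17.9% of all genes. H2-Ab1 went from 2861 to 6776 CPM in them. The median log2 ratio of members other than H2-DMa was 1.38, and that of H2-DMa was -0.92.

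B-like and cDC2-like cells, with high class II in both libraries, differed from this. All 10 members were measured in each. None was called higher in either class, where 4.47% of all genes in B-like and 8.25% in cDC2-like cells were. Lower were H2-DMa and Ciita in B-like cells (11.9% of all genes) and H2-DMa alone in cDC2-like cells (10.9%). The median log2 ratio of the measured members other than H2-DMa was 1.02 in classical monocyte-like, 1.02 in nonclassical monocyte-like, 0.50 in macrophage-like and 1.002 in Kupffer-like cells. It was 0.11 in B-like and 0.07 in cDC2-like cells. The median over all genes lay between -0.06 and 0.03 in these 6 classes.

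**Figure D2:**
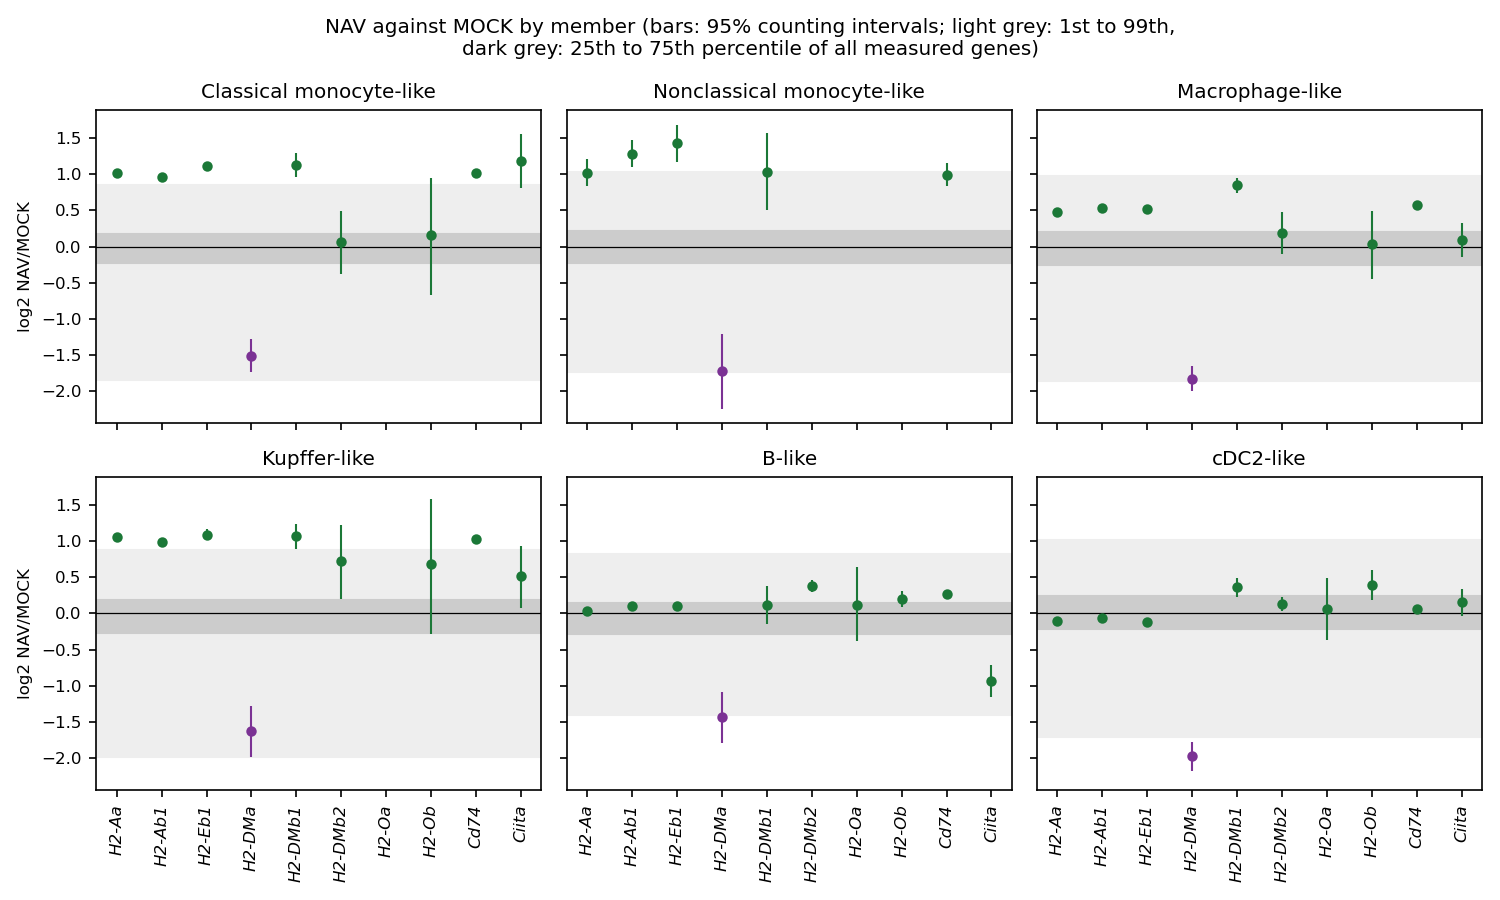
Log2 NAV/MOCK ratio of each measured member in 6 classes, with 95% counting intervals; H2-DMa is purple, the other members green, and grey bands give the 1st to 99th and the 25th to 75th percentile of all measured genes in the class. H2-DMa lies between -1.43 and -1.97 in all 6 classes, while H2-Ab1 lies between 0.54 and 1.28 in the monocyte and macrophage classes and near 0 in B-like and cDC2-like cells.

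Of the I-A chains, H2-Ab1 went from 735 CPM in MOCK to 1438 CPM in NAV in classical monocyte-like cells, a log2 ratio of 0.97 (0.92 to 1.02). Kupffer-like cells went from 1163 to 2297 CPM, a log2 ratio of 0.98 (0.92 to 1.04). In macrophage-like cells the levels were 2349 and 3409 CPM, a log2 ratio of 0.54 (0.51 to 0.56). NAV exceeded MOCK by more than counting error in these sums. In classical monocyte-like cells the size depended on the clusters. With clusters weighted equally, the log2 ratio was 0.009 for H2-Ab1, 0.13 for H2-Aa, 0.11 for H2-Eb1 and 0.29 for Cd74, so none of these was called, and with the libraries clustered separately H2-Ab1 had 3.13. H2-DMb1 kept its call there with clusters weighted equally (0.70). In macrophage-like cells H2-Ab1 had 0.96 with clusters weighted equally and 0.41, short of the call, with equal weight per cell. Nonclassical monocyte-like cells went from 194 to 472 CPM (log2 1.28, 1.09 to 1.47), with a log2 ratio of 0.56 under a stricter cell filter. B-like cells had 4340 and 4667 CPM (log2 0.10, 0.06 to 0.15) and cDC2-like cells 13748 and 13186 CPM (log2 -0.06, -0.08 to -0.04). H2-Aa gave the same directions, from a log2 ratio of 1.05 in Kupffer-like to -0.11 in cDC2-like cells, and in macrophage-like cells its 0.48 fell just short of the call.

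H2-Eb1, whose protein is not displayed in this strain, moved with the I-A chains. It went from 423 to 911 CPM in classical monocyte-like cells and from 669 to 1422 CPM in Kupffer-like cells, log2 ratios of 1.11 and 1.09. Cd74, the invariant chain, had 681 and 1382 CPM in classical monocyte-like cells and 1230 and 2499 CPM in Kupffer-like cells, log2 ratios of 1.02 in both. In macrophage-like cells Cd74 went from 2268 to 3376 CPM (log2 0.57), and in B-like cells from 4980 to 6028 CPM (log2 0.28), where it was not called.

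H2-DMb1 was called higher in the same 4 classes. Its level went from 64.8 to 141 CPM in classical monocyte-like cells (log2 1.12) and from 127 to 266 CPM in Kupffer-like cells (log2 1.06). In macrophage-like cells it went from 123 to 221 CPM (log2 0.85, 0.74 to 0.95). H2-DMb2 was low in these classes and differed less, with log2 ratios of 0.06 (-0.38 to 0.50) in classical monocyte-like and 0.19 (-0.10 to 0.47) in macrophage-like cells, intervals that hold 0, and 0.72 (0.20 to 1.22) in Kupffer-like cells. H2-DMb1 was also higher in cDC1-like cells, with 440 and 732 CPM (log2 0.73), together with H2-Ob (152 and 296 CPM) and Ciita (108 and 170 CPM). That made 3 of 9 measured members called higher in cDC1-like cells, against 10.4% of all genes.

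H2-DMa, the partner chain of H2-DMb1, went the other way in every one of the 6 classes. In macrophage-like cells 2285 UMIs in MOCK and 324 in NAV gave 168 and 47.5 CPM, a log2 ratio of -1.82 (-1.996 to -1.655). In cDC2-like cells 820 and 272 UMIs gave 470 and 120 CPM (log2 -1.97, -2.18 to -1.77). In Kupffer-like cells 928 and 74 UMIs gave 146 and 47.4 CPM (log2 -1.63, -1.99 to -1.28). The lower level was thus seen both where the other class II genes were higher in NAV and where they were level. In B-like cells 219 and 104 UMIs gave 159 and 58.9 CPM (log2 -1.43, -1.78 to -1.09). Classical monocyte-like cells had 114 and 40.1 CPM (log2 -1.51) and nonclassical monocyte-like cells 67.0 and 20.4 CPM (log2 -1.72). In cDC1-like cells the levels were 481 and 140 CPM (log2 -1.78), with 1 of 9 measured members called lower beside 13.1% of all genes. In pDC-like cells only 10 and 29 UMIs were counted, 64.7 and 62.4 CPM, and the interval (-1.13 to 1.15) holds both no change and a ratio of 0.5.

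Inside a library, the ratio of H2-DMa to H2-DMb1 UMIs does not depend on scaling to the class total. It was 1.37 (1.29 to 1.46) in MOCK and 0.215 (0.190 to 0.243) in NAV in macrophage-like cells, a log2 shift of -2.67. In B-like cells it was 1.04 (0.859 to 1.27) and 0.357 (0.283 to 0.449), a shift of -1.55. In cDC2-like cells it was 1.05 and 0.209, a shift of -2.33. The MOCK and NAV intervals of this ratio did not overlap in any of the 6 classes. In MOCK the ratio was near 1 in B-like, cDC2-like, cDC1-like and Kupffer-like cells, and it was 1.76 in classical and 2.50 in nonclassical monocyte-like cells. In NAV it lay between 0.178 in Kupffer-like and 0.374 in nonclassical monocyte-like cells.

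**Figure D3:**
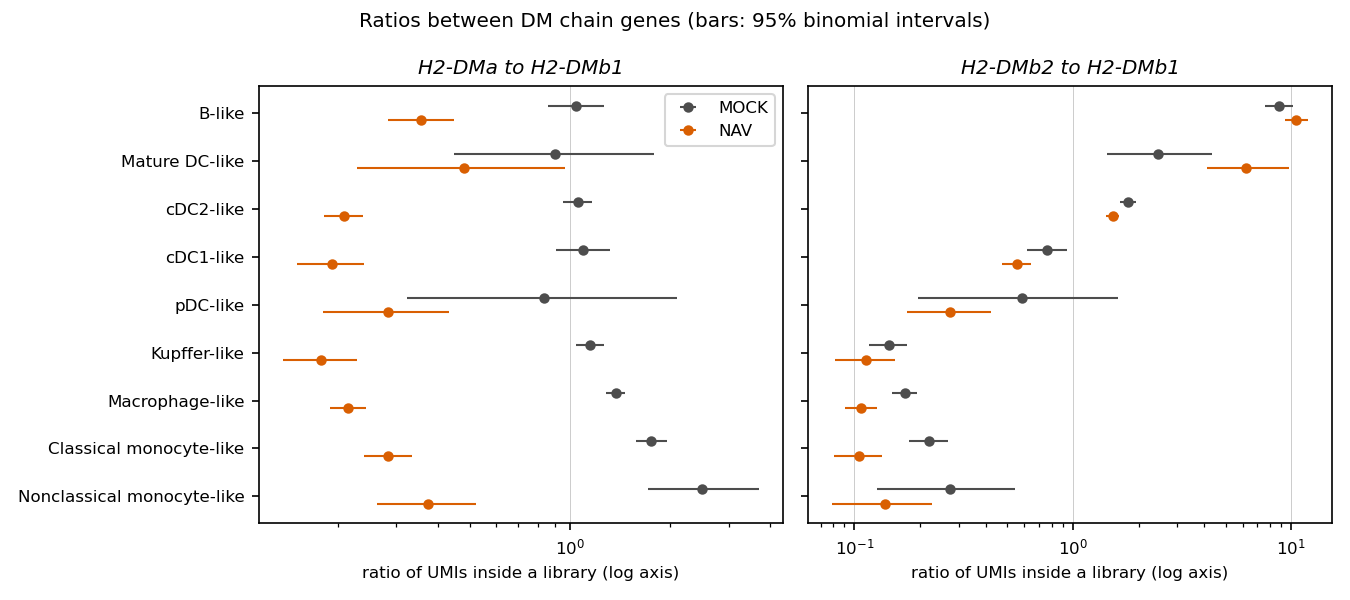
UMI ratios of H2-DMa to H2-DMb1 and of H2-DMb2 to H2-DMb1 inside each library on log axes, MOCK in grey and NAV in orange, with 95% binomial intervals. H2-DMa to H2-DMb1 falls from 1.37 to 0.215 in macrophage-like cells, while H2-DMb2 to H2-DMb1 is highest in B-like cells in both libraries, at 8.76 in MOCK and 10.6 in NAV.

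H2-DMa was not the only gene that was lower in NAV in every one of the 6 classes. Of 5413 genes measured in all 6 classes, 63 (1.16%) were at least 2-fold lower in NAV in every class, H2-DMa among them, and 1 was at least 2-fold higher in every class. Ctsd, which encodes the lysosomal protease cathepsin D, was also at least 2-fold lower in all 6 classes. The GC content of this set was also read. Of the 63, 38 lay in the top 10% of genes by GC content of the last 500 transcript bases, which starts at 54.2%. H2-DMa had 55.2% GC there, against a median of 43.6% over 10716 genes. Cd74 (56.0%) and H2-Oa (57.8%) also lay in that top 10%. Cd74 was not called lower in any of the 6 classes, nor was H2-Oa in B-like and cDC2-like cells, where alone of the 6 it was measured. H2-DMb1 had 52.8% and H2-Ab1 53.4%. In macrophage-like cells, 1004 other genes within 2 percentage points of the GC content of H2-DMa had a median log2 ratio of -0.27, and 44 of them (4.38%) were as low as H2-DMa, against 1.07% of all genes. In cDC2-like cells the median was -0.17 and 21 of 603 (3.48%) were as low, against 0.604% of all. The share as low was larger in B-like (5.07%), nonclassical monocyte-like (5.37%), classical monocyte-like (8.80%) and Kupffer-like cells (9.08%). Over all genes it was 0.963%, 1.01%, 2.04% and 1.93% there, in that order. Over the 6 classes, 29.2% (B-like) to 38.5% (Kupffer-like) of genes of this GC content were called lower, beside 11.9% and 14.2% of all genes in these 2. The part of GC content in the result was not tested. Brd2, over which the H2-DMa model runs on the other strand, was not called in any of the 6 classes, with log2 ratios between 0.04 and 0.25. Whether this overlap bears on the H2-DMa level was not tested.

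Ciita did not follow its known targets in every class. In B-like cells 411 and 276 UMIs gave 298 and 156 CPM, a log2 ratio of -0.93 (-1.16 to -0.71), while H2-Ab1, H2-Aa and Cd74 were level or slightly higher there. In classical monocyte-like cells 107 and 139 UMIs gave 12.8 and 29.0 CPM, a log2 ratio of 1.18 (0.81 to 1.56). In the Mmp19-led cluster of that class, with 86 and 83 UMIs, the ratio was 1.16 (0.71 to 1.61). The Vcan-led cluster held 14 and 3 Ciita UMIs, too few to give a direction. Kupffer-like cells went from 28.7 to 41.0 CPM (log2 0.51, 0.08 to 0.93), and macrophage-like cells had 32.5 and 34.8 CPM (log2 0.10, -0.14 to 0.33). In cDC2-like cells the levels were 224 and 250 CPM (log2 0.15, -0.03 to 0.34). In mature DC-like cells 30 and 35 UMIs gave 165 and 101 CPM (log2 -0.72, -1.46 to 0.04), an interval that holds 0. Pax5, the B cell identity factor, had a log2 ratio of -0.11 in B-like cells, and Prdm1, which encodes a repressor of Ciita in plasma cells, had 18 and 48 UMIs, a log2 ratio of 1.06 (0.25 to 1.93). Whether either bears on the Ciita level was not tested.

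Classes are mixtures, so the members were also read inside single clusters. All 6 macrophage-like clusters had H2-DMb1 higher in NAV and H2-DMa lower. H2-Ab1 was higher in NAV in 5 of them, with log2 ratios from 0.86 to 1.76. The largest cluster, led by Tmem119, Col14a1 and Ms4a7 (966 and 337 cells), went from 3500 to 7418 CPM. The cluster led by Gpnmb, a gene of lipid-laden macrophages, went from 271 to 921 CPM. The exception was the cluster led by Arg1 and Spp1, which encode arginase 1 and osteopontin. Its H2-Ab1 was 517 CPM in MOCK and 576 CPM in NAV (log2 0.16), and it held 161 MOCK and 468 NAV cells. The summed class ratio of 0.54 sits below those of the 5 other clusters, beside a larger share of NAV cells in this low cluster.

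Classical monocyte-like cells were similarly mixed. The cluster led by Vcan, Chil3 and F13a1 (704 and 566 cells) had H2-Ab1 at 101 CPM in MOCK and 56.0 CPM in NAV (log2 -0.85), levels in the range of the T- and neutrophil-like background. The cluster led by Mmp19, Chil3 and Thbs1 (967 and 481 cells) went from 1218 to 2216 CPM (log2 0.86). A small cluster led by Cxcl9, Gbp2 and Iigp1, genes induced by interferon gamma, held 15 MOCK and 82 NAV cells and had 3837 and 5953 CPM. It was read although it held under 50 MOCK cells, a choice made after seeing the data. In NAV this small cluster gave 2480 of the 6891 H2-Ab1 UMIs of the class, and in MOCK 336 of 6156. H2-DMa was lower in NAV in all 14 clusters with at least 50 cells in each library and 50 UMIs of the gene, with log2 ratios from -2.39 to -0.81.

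**Figure D4:**
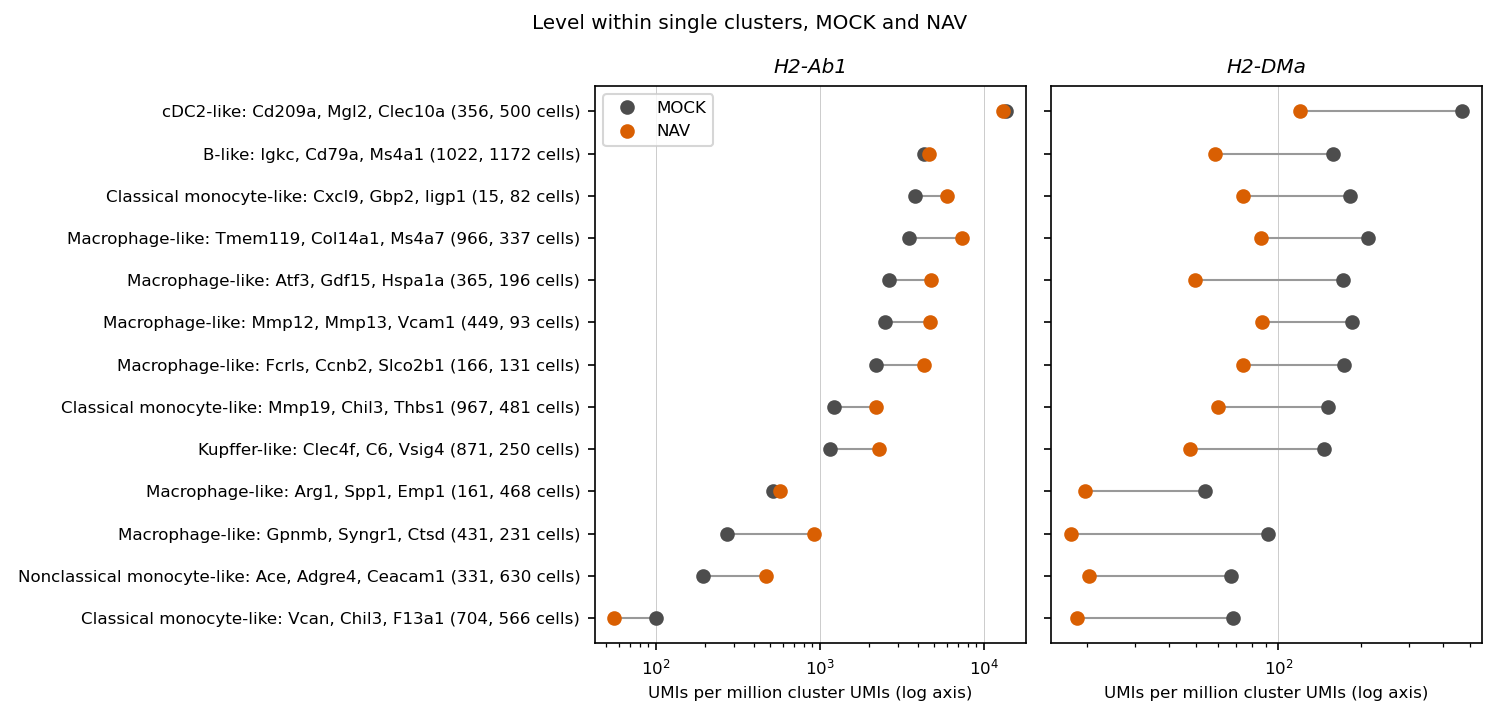
H2-Ab1 (left) and H2-DMa (right) in CPM of the cluster on log axes within 13 single clusters of the 6 classes, MOCK in grey and NAV in orange, with the leading genes and the MOCK and NAV cell numbers of each cluster. H2-DMa is lower in NAV in each cluster shown, while H2-Ab1 is higher in most, level in the Arg1-led, B-like and cDC2-like clusters and lower in the Vcan-led one.

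To see how many cells carried the signal, each cell was thinned to 1000 UMIs and the UMIs of H2-Aa, H2-Ab1, H2-Eb1 and Cd74 were added. In Kupffer-like cells the median cell had 2 in MOCK and 5 in NAV, and the share of cells with none went from 30.4% to 10.8%. In macrophage-like cells the median was 2 in both libraries and the upper quartile went from 15 to 21. The share of macrophage-like cells with none went from 37.1% to 41.0%. These values mix clusters, and the low Arg1-led cluster held 161 MOCK and 468 NAV cells. The level median of the class therefore does not show how cells of a single cluster differed.

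Monocytes were sparse in class II RNA. After thinning, 71.4% of MOCK and 64.1% of NAV classical monocyte-like cells had none of the 4 genes, and 78.4% and 74.0% of nonclassical ones. The 5% of nonclassical monocyte-like cells with the most held 68.5% of the class's UMIs of these genes in MOCK and 77.5% in NAV. In B-like cells the top 5% held 11.2% in both libraries, which shows an even spread. Among cDC2-like cells the median was 48 and 46, and the 10th percentile was 27.9 in MOCK and 11 in NAV, so the lowest cells held less in NAV.

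The share of cells with an H2-Ab1 UMI, unthinned, was 28.8% and 35.3% in classical monocyte-like cells (median depths of 4797 and 4183 UMIs). It was 10.4% and 12.0% in CD8 T-like cells (2366 UMIs in both), which stand for background. After thinning, the classical monocyte-like shares were 17.9% (16.1 to 19.8) and 24.6% (22.1 to 27.2), with 11 and 6 shallower cells left out. The thinned background was 3.30% (0.685 to 9.33) and 8.57% (4.88 to 13.7) in CD8 T-like cells and 6.56% (5.41 to 7.87) and 9.53% (8.38 to 10.8) in neutrophil-like cells, so it too was higher in NAV, within overlapping intervals in the first. Its part in the monocyte difference was not tested. In nonclassical monocyte-like cells 20.5% and 21.0% had an H2-Ab1 UMI unthinned and 9.12% (6.24 to 12.8) and 11.005% (8.66 to 13.7) thinned, intervals that overlap each other. The NAV value also overlaps the interval of the NAV neutrophil-like background. For H2-DMa the shares in cDC2-like cells were 81.7% and 37.8% unthinned (median depths of 4766 and 4394 UMIs) and 36.3% and 10.5% thinned, with 6 cells left out of each library. Its shares in CD8 T-like cells were 4.72% and 1.04%.

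The wider pathway was read by lists. Of 7 class II promoter factors, none of those measured was called in classical or nonclassical monocyte-like or B-like cells. Rfx5, which binds the X box, was called lower in macrophage-like cells, with 7.44 and 4.84 CPM (log2 -0.62, -1.23 to -0.04). In Kupffer-like cells Rfx5 had 8.20 and 5.77 CPM, and its interval holds 0. The RFX partner Rfxap went from 24.6 to 14.1 CPM in Kupffer-like cells. Nfyc, a subunit of the factor that binds the Y box, was called higher in cDC2-like cells (35.0 and 52.8 CPM). The median of this list lay between -0.07 and 0.18 over the 6 classes.

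A further list held genes for induction and repression of Ciita. Irf1, an interferon-induced activator of Ciita, went from 57.2 to 97.7 CPM in classical monocyte-like and from 46.5 to 103 CPM in cDC2-like cells. Ciita and the class II chains were not called in cDC2-like cells. Whether Irf1 bears on the level of Ciita in any class was not tested. Usf1, which binds a Ciita promoter, was lower in the 3 classes where it was measured. In macrophage-like cells it had 373 and 8 UMIs (log2 -4.55, -5.77 to -3.55). Irf8 went from 64.8 to 130 CPM in cDC2-like cells, and Prdm1 there from 62.5 to 37.9 CPM.

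Among 6 measured genes for processing of invariant chain and antigen, Ctsd was lower in all 6 classes, with log2 ratios between -2.65 and -2.21. Its last 500 bases had 56.4% GC. Ctsl, a protease that trims the invariant chain in some cells, went from 289 to 451 CPM in macrophage-like cells (log2 0.64) and from 326 to 202 CPM in classical monocyte-like cells (log2 -0.69). Lgmn, an asparagine endopeptidase, was called lower in B-like cells (193 and 126 CPM). Of the class II turnover genes, Marchf1, a ubiquitin ligase that removes class II from the surface, was called lower in macrophage-like cells with 46.5 and 31.7 CPM (log2 -0.55). Il10 went from 11.2 to 6.05 CPM in classical and from 12.1 to 27.1 CPM in nonclassical monocyte-like cells.

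Of the 6 costimulation genes, Cd40 and Cd274, the gene of PD-L1, were called higher in classical monocyte-like cells. Cd40 went from 11.9 to 31.9 CPM (log2 1.42, 1.05 to 1.80). Cd80 and Icosl were called lower in nonclassical monocyte-like cells, and none of the list was called in the other 4 classes. Among the other genes of the class II region, Tap1 and Psmb9 serve class I presentation. Tap1, a peptide transporter subunit, was called higher in 4 of 6 classes, from 56.6 to 132 CPM in classical monocyte-like cells. Psmb9, an immunoproteasome subunit, was called higher in 3 of 6, while Psmb8, a further subunit beside it in the genome, was called lower in 3 of 6. In nonclassical monocyte-like cells Psmb9 had 26.1 and 52.0 CPM and Psmb8 212 and 128 CPM, so this pair of partners also moved apart. Their last 500 bases had 47.8% and 53.4% GC.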

How the data were processed

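The deposited tables held UMI counts per gene and barcode, whole numbers, 1 table per library. The mm10 build and the tools STARsolo 2.7.10a, fastp and Cell Ranger are named per the submitters' processing notes, without role or order. The filter kept 10770 MOCK and 10441 NAV barcodes (minimum 500 UMIs and 200 genes, mitochondrial share below 20%). Scrublet's automatic cut-off did not work, marking 0.00929% of MOCK and 0% of NAV barcodes, so barcodes scoring above 0.25 and clusters with a median above 0.10 were removed, limits set after the data were seen. Both libraries were clustered together with scanpy 1.11.5 (2000 variable genes, 30 components, 15 neighbours, Leiden resolution 1.0, then again within phagocytes and lymphocytes), without the class II genes. Clusters took a class name from at least 3 markers. 316 MOCK and 327 NAV cells stayed unnamed.

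UMIs were summed per class and library, divided by the class total (CPM, exact Poisson intervals), and compared as a log2 ratio with an exact interval conditional on the sum. Shares have Clopper-Pearson intervals. Comparisons used classes with at least 100 cells in each library. Cycling-like, neutrophil-like, CD8 T-like and gd T/T17-like cells also met this minimum, but are not among the 6 classes. The cDC1-like, mature DC-like and pDC-like classes, with at least 40, were added after seeing the data. The ratio script was tested on simulated data. Genes named were all members, up to 3 called genes of each list in a class, and the nearest genes in pattern. Brd2, Pax5 and genes with no call were named after their values were seen. One gene of a list is not reported here. Members and lists were chosen with earlier results of these data known. The older symbols March1 and March8, H2-Ea, H2-Ea-ps and Ifi30 had no row matched. Alternatives were the cell filter, doublets, resolution, separate clustering, class II genes in the clustering, scaling, cell and cluster weights, the UMI minimum and the call threshold.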

Additional observations from a re-analysis of the deposited data

Results flagged for a closer look

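Ciita differed in direction between classes under the same contrast. Its log2 NAV/MOCK ratio was 1.18 in classical monocyte-like cells and 0.51 in Kupffer-like cells, and -0.93 in B-like cells. The difference between the classes was not tested, since each group had 1 library.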

How the results depend on the processing

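H2-DMa had a median log2 ratio of -1.67 over the 6 classes and the H2-DMa to H2-DMb1 ratio a median shift of -2.65, and under the alternatives run both stayed within counting error of these values. The other members' median of 1.01 in the 4 monocyte and macrophage classes stayed above 0 in each alternative, with 0.71 under the stricter filter, 1.15 with doublets kept, 0.63 at Leiden resolution 2.0, 1.34 with the libraries clustered separately, 0.83 with class II genes kept in the clustering and 0.81 with equal weight per cell. The log2 ratio of H2-Ab1 between cDC2-like and classical monocyte-like cells of MOCK, 4.23, became 4.77, 5.75, 5.95, 6.47 and 6.35 under the first 5 of these in that order. The NAV minus MOCK difference in classical monocyte-like cells with an H2-Ab1 UMI, 6.67 percentage points after thinning, became 2.33 at resolution 2.0 and 16.0 with separate clustering. Of 53 pairs of member and class, 23 were called higher and 7 lower. Of all genes in a class, 4.36% to 8.25% were called higher and 10.9% to 14.2% lower. The 7 were H2-DMa in each of the 6 classes and Ciita in B-like cells. At a threshold of 1.0, 13 were higher, where 0.482% to 1.17% of all genes in a class were. Of the 30, 19 kept their call and 28 their sign in every alternative run. The signs that turned were those of H2-DMb1 in nonclassical monocyte-like cells under the stricter filter (-0.013) and of Ciita in classical monocyte-like cells with clusters weighted equally (-0.21), the latter a mean over a cluster with 14 and 3 UMIs of the gene. The cause of these moves was not tested. No paired analysis was possible because each group had 1 library. Depth limits H2-Oa, with under 50 UMIs in 4 of the 6 classes, and H2-DMb2, H2-Ob and Ciita in nonclassical monocyte-like cells.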
